A study of Mus musculus with 3 samples.

Results

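Expression of 10 genes of the mitochondrial step of apoptosis was examined in 5TGM1.BRE, a mouse myeloma line that resists bortezomib and engrafts in mice. The genes were chosen by name: 5 survival genes of the BCL2 family (Mcl1, Bcl2, Bcl2l1, Bcl2l2 and Bcl2l10), 3 pore-forming effectors (Bax, Bak1 and Bok) and 2 channels of the outer mitochondrial membrane that bind family members (Vdac1 and Vdac2). All 10 were found among the 24467 gene symbols of the count tables. The cells descend from 5TGM1, a C57BL/KaLwRij myeloma line, were obtained from the bone marrow of such mice, and were kept in IMDM with 20% fetal bovine serum and 10 nM bortezomib, an inhibitor of the proteasome. Drug was withdrawn at least 72 h before polyadenylated RNA was taken from 10000000 cells per sample. There were 3 samples, replicates 1 to 3, in 1 group with the same treatment. The label of replicate 1 does not mention selection in bortezomib in its cell type field, whereas those of replicates 2 and 3 do, and titles and growth protocols are alike. The parental line and the resistant line that had not passed through mice were not analysed here, so the values are levels in resistant cells and no change with resistance was measured.

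The BCL2 family decides whether the outer mitochondrial membrane is breached. BAX and BAK, once active, form pores that release cytochrome c and start the caspase cascade. MCL1, BCL2, BCL-XL (encoded by Bcl2l1) and BCL-W (Bcl2l2) hold the effectors in check, and BH3-only proteins such as NOXA and BIM bind the survival proteins and free the effectors. Myeloma cells commonly depend on MCL1, a short-lived protein that the proteasome degrades, so that its amount also depends on turnover, which RNA does not show. No protein was measured. VDAC proteins carry metabolites across the outer membrane, and VDAC2 also recruits BAK and BAX to it.

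The libraries held 62303493, 45705994 and 59402218 counts for replicates 1, 2 and 3. Of 8 plasma cell markers, 7 reached 1 CPM (counts per 1000000 counts of the library) in all libraries, and their summed level was between 4454 and 4569 CPM. Of 5 B cell markers, 1 reached 1 CPM in all libraries. Their summed level was at most 3.11 CPM, with Bcl6 and Cr2 at 0 counts. Markers of T and NK cells, myeloid cells, and stromal and endothelial cells stayed at or below 1.12 CPM in sum for each list, with Cd3e, Ncr1, S100a8, S100a9 and Col1a2 at 0 counts in every library. Replicate 3 stood apart. Over genes with 20 or more counts in a pair of libraries, chi-square per degree of freedom was 4.0 for replicates 1 and 2, 65.1 for 1 and 3, and 44.4 for 2 and 3. The labels do not say whether the samples were separate cultures, so SDs and p-values cover the spread between these samples only, and that spread may be technical. In such bulk RNA, fewer expressing cells and less RNA per cell cannot be told apart.

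Of the 10 genes, 8 were at 1 CPM or more in every library, against 40.9% of all symbols, and Bcl2l10 and Bok were at the edge of detection. To compare genes, CPM was divided by the length of all annotated exons of a gene in kilobases. On this scale the survival genes formed 4 steps: Mcl1 on top, then Bcl2l1, Bcl2l2 and Bcl2. The effectors Bax and Bak1 lay near Bcl2l1, and Vdac1 lay beside Mcl1. The levels spanned from 142 CPM per kilobase for Mcl1 down to 1.56 for Bcl2, and to 0.0283 for Bcl2l10 and 0.00687 for Bok. A gene with counts had a median of 2.46 CPM per kilobase over 16119 such genes with a known length.

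Mcl1 (chr3:95658788-95663176, plus strand, GRCm38 as for all positions) was the highest of the survival genes. It had 29576, 22082 and 29690 counts in replicates 1, 2 and 3, or 139, 141 and 146 CPM per kilobase. Its mean of 142 ± 3.74 CPM per kilobase (SD, n = 3) lay at percentile 97.8 of genes with counts. The counts are per gene and do not separate the long, protective MCL1 isoform from the shorter one that promotes death. By the smallest root mean square difference in log2 CPM per kilobase over the 3 libraries, the genes nearest in level to Mcl1 among 13179 genes were Cd53, Casp1 and Ppp2cb, at 144 ± 0.362, 144 ± 2.97 and 143 ± 8.97 CPM per kilobase (SD, n = 3 for each). Their differences from Mcl1 were 0.03, 0.03 and 0.05 on the log2 scale. With 1 group of 3 libraries, this is a likeness of level only.

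Bcl2l1 (chr2:152780668-152831728, minus strand) encodes BCL-XL and, by another splice form, the death-promoting BCL-XS. It had 12509, 8779 and 12559 counts, or 43.8, 41.9 and 46.1 CPM per kilobase, with a mean of 43.9 ± 2.11 (SD, n = 3). All 3 libraries were thus far below those of Mcl1, and replicate 3 was the highest of the 3. Bcl2l2 (chr14:54883377-54888234, plus strand) was at 11.6, 11.5 and 11.0 CPM per kilobase, a mean of 11.4 ± 0.325 (SD, n = 3). Its libraries differed by at most 1.05-fold in CPM.

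Bcl2, the founding member of the family and the target of the drug venetoclax, was the lowest survival gene that was clearly detected. Its gene spans chr1:106538178-106714274 on the minus strand. It had 877, 689 and 807 counts, or 14.1, 15.1 and 13.6 CPM, and after division by its 9157 bases of exon it was at 1.54, 1.65 and 1.48 CPM per kilobase. The mean of 1.56 ± 0.0829 (SD, n = 3) lay at percentile 45.6 of genes with counts, while the other 3 detected survival genes lay at percentiles 73.0 to 97.8. Bcl2l10, a survival gene best known from oocytes (chr9:75347758-75351632, plus strand), had 3, 1 and 2 counts. Its 6 counts over all libraries give an exact 95% Poisson interval of 0.0132 to 0.0780 CPM, for counting error only.

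As shares of the summed survival transcripts per kilobase, Mcl1 made up 70.9, 72.0 and 71.4% in replicates 1, 2 and 3. Bcl2l1 made up 22.1 ± 0.643%, Bcl2l2 5.72 ± 0.303% and Bcl2 0.782 ± 0.0570% (SD, n = 3 for each). The composition was close in the 3 libraries, with the largest SD, that of Bcl2l1, below 1 percentage point. Shares rest on the lengths taken. With the longest annotated transcript as the length, Mcl1 had 60.3 ± 0.665% and Bcl2l1 33.2 ± 0.841% (SD, n = 3 for each), since the exons of Bcl2l1 add up to 4586 bases over 9 transcripts of which the longest has 2568.

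**Figure D1:**
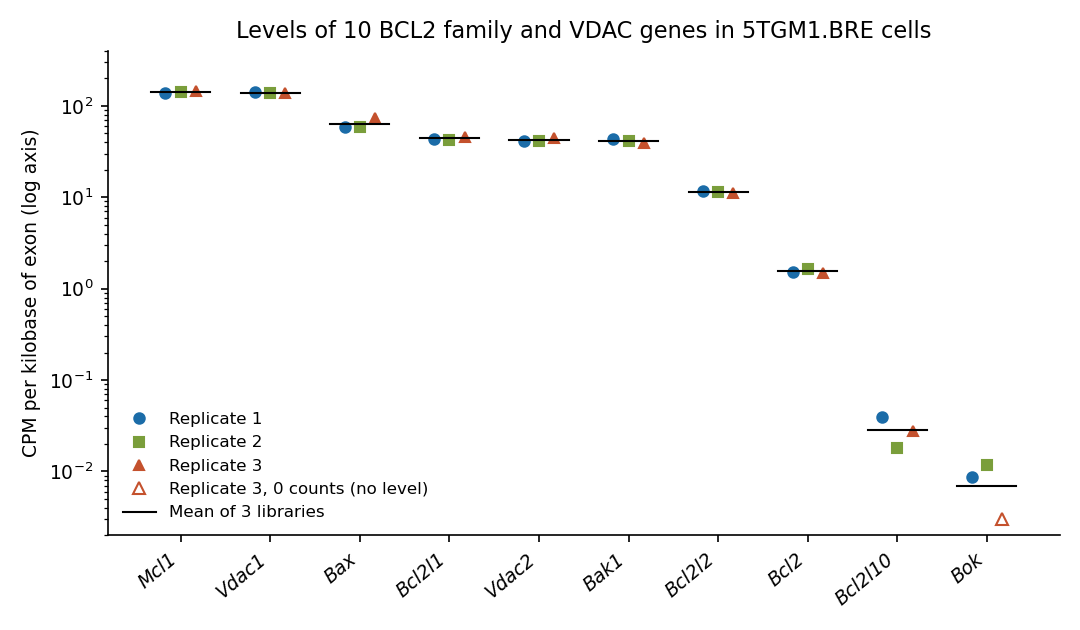
Level of each gene in each library, as CPM per kilobase of exon on a log axis, with genes ordered by their mean (black line, n = 3) and 1 symbol per replicate. Mcl1 and Vdac1 lie together on top near 140 CPM per kilobase, Bcl2 is at 1.56, and Bcl2l10 and Bok have 6 and 2 counts in all. The open triangle marks the library in which Bok had 0 counts and is placed at the foot of the axis, not at a level.

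Among the effectors, Bax and Bak1 were both well expressed and Bok was not. Bax (chr7:45461697-45466898, minus strand) encodes the effector that moves from the cytosol to mitochondria. It had 5708, 4269 and 6935 counts, or 58.1, 59.3 and 74.1 CPM per kilobase, with a mean of 63.8 ± 8.90 (SD, n = 3). Replicate 3 was above the other 2 libraries, which lay close together, and the SD of Bax, 13.9% of its mean CPM, was the largest of the 8 genes at 1 CPM or more. Bak1 (chr17:27019810-27029009, minus strand) encodes the effector that resides in the outer membrane. It had 6528, 4576 and 5610 counts, or 43.5, 41.6 and 39.2 CPM per kilobase, with a mean of 41.5 ± 2.15 (SD, n = 3), and here replicate 3 was the lowest.

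Bok (chr1:93685660-93695764, plus strand) encodes an effector that survival proteins do not restrain and that is kept low by degradation in the proteasome. It had 1, 1 and 0 counts, and the 2 counts give an exact 95% Poisson interval of 0.00145 to 0.0432 CPM over all libraries. Its transcript could not be told from none at this depth. Bax and Bak1 together made up nearly the whole effector sum, Bax with 57.2, 58.8 and 65.4% and Bak1 with 42.8, 41.2 and 34.6% in replicates 1, 2 and 3. Bax was the larger part in every library on this scale.

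Both channels were well expressed, Vdac1 beside Mcl1 and Vdac2 near Bcl2l1 and Bak1 per kilobase of exon. Vdac1 (chr11:52360860-52389397, plus strand) had 22868, 16599 and 21595 counts, or 140.1, 139 and 139 CPM per kilobase. It was the steadiest of the 10 genes, with an SD of 0.586% of its mean CPM. Vdac2 (chr14:21825238-21845879, plus strand) had 12236, 8949 and 12503 counts, or 41.2, 41.1 and 44.1 CPM per kilobase, with a mean of 42.1 ± 1.74 (SD, n = 3). The third paralog, Vdac3, was at 38.6 ± 1.28 CPM per kilobase (SD, n = 3). Of the summed VDAC transcripts per kilobase, Vdac1 made up 63.3 ± 0.883%, Vdac2 19.2 ± 0.575% and Vdac3 17.6 ± 0.352% (SD, n = 3 for each). These shares also rest on the lengths taken. With the longest transcript their means were 54.8, 29.9 and 15.2%. With no length they were 47.1, 25.9 and 27.0%, so that Vdac3 was above Vdac2.

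Some neighbours in the order of levels could not be separated. Mcl1 exceeded Vdac1 by 0.03 ± 0.04 on the log2 scale (SD, n = 3) and in 2 of 3 libraries. Vdac2 exceeded Bak1 in 1 of 3 libraries, by a mean of 0.02 ± 0.13 (SD, n = 3). Bcl2l1 exceeded Vdac2 in 3 of 3 libraries, by 0.06 ± 0.03 (SD, n = 3), although their ranges overlapped. Bax lay above Bcl2l1 in 3 of 3 libraries, by 0.53 ± 0.14 (SD, n = 3), with no overlap of their ranges. This direction rests on the length correction: in CPM, with no length, Bcl2l1 was the higher, at 201 ± 9.69 against 101 ± 14.0 for Bax (SD, n = 3 for each). With the longest transcript as the length, Vdac1 was first and Mcl1 second, 0.34 apart, and Vdac2 took the third place, with 98.5 CPM per kilobase, since its longest transcript of 2039 bases is far below its 4769 bases of exon. In these annotations the order Mcl1, Bcl2l1, Bcl2l2, Bcl2 among survival genes was the same with either length and with none.

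The bases before the start sites are shown for Mcl1 and Bcl2, the highest and the lowest survival gene that was clearly detected, and for Bax and Bok, an expressed and a barely detected effector. Each sequence is the 250 bases before the RefSeq start (GRCm38.p6), 5′ to 3′ on the strand of the gene, and capitals mark matches to the motifs searched.
Mcl1, chr3:95658471-95658720, plus strand: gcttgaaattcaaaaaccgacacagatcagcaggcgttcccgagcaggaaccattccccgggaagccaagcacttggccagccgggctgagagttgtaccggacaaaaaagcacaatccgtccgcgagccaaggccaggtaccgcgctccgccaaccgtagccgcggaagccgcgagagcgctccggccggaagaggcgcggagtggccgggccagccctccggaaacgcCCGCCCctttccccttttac
Bcl2, chr1:106714291-106714540, minus strand: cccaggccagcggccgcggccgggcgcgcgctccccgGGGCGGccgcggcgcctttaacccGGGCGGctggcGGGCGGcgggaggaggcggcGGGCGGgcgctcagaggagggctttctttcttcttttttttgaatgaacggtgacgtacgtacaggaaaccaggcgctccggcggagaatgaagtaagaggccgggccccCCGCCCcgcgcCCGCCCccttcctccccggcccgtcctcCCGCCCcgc
Bax, chr7:45466899-45467148, minus strand: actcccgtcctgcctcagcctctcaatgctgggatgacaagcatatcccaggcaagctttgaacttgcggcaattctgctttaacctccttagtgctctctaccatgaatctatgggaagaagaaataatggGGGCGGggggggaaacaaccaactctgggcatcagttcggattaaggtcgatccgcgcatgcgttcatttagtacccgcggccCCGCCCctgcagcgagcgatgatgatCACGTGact
Bok, chr1:93685325-93685574, plus strand: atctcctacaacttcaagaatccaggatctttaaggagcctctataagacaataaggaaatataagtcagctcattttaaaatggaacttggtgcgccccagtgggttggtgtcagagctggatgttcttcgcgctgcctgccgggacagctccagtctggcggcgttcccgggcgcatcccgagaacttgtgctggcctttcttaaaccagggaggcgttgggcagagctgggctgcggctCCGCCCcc
The motifs searched on both strands were the GC box GGGCGG, the CCAAT box CCAAT, the TATA box TATAAA, the E-box CACGTG and the cAMP response element TGACGTCA, and no match overlapped a match to another motif. Bcl2, with 74.8% G and C and 36 CpG dinucleotides, had 7 GC boxes, and Mcl1, with 64.4% and 26 CpG, had 1. Bax, with 54.0% and 14 CpG, had 2 GC boxes and 1 E-box, and Bok, with 55.2% and 12 CpG, had 1 GC box. All 4 windows were thus above the median of 6 CpG and 52.4% G and C over 32851 such windows, the barely detected Bok as well as the abundant Mcl1. This did not hold for every window of an expressed gene. The windows of Bcl2l1 had 48.4% with 0 CpG, 53.2% with 11 and 47.6% with 12. RefSeq windows were found for 8 of the 10 genes, 11 windows in all, and not for Bcl2l10 and Vdac2. Of the 11 windows, 7 held no annotated exon, and the rest were partly or wholly exon. A GC box was in 6 of the 11 windows and in 32.7% of all windows, and an E-box in 1 of 11 and in 6.0% of all. The CCAAT box, in 33.8% of all windows, the TATA box, in 12.4%, and the cAMP response element, in 1.5%, were in none of the 11. These matches describe letters and not binding.

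Ratios within a library remove the library's depth, and 9 were taken on counts per kilobase of exon. Mcl1 exceeded Bcl2l1 by 1.67, 1.75 and 1.67 on the log2 scale in replicates 1, 2 and 3, a 3.24-fold excess that was 1.81-fold with the longest transcript and 2.41-fold with no length. Mcl1 exceeded Bcl2 by 6.50, 6.42 and 6.62, and Bcl2l1 exceeded Bcl2 by 4.83, 4.67 and 4.96. The latter is a 28.2-fold excess per kilobase and 14.1-fold with no length, as Bcl2 has the greatest exon length of the 10 genes. Bcl2l1 exceeded Bcl2l2 3.86-fold (log2 1.95 ± 0.11, SD, n = 3), or 5.89-fold with the longest transcript. Every one of these 4 ratios had the same sign in 3 of 3 libraries and an SD well below its mean.

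The summed survival genes exceeded the summed effectors by 0.95, 0.96 and 0.85 on the log2 scale, a 1.89-fold excess per kilobase of exon. It was 1.77-fold with the longest transcript and 3.76-fold with no length, since Bax and Bak1 are shorter than most of the survival genes. Bax exceeded Bak1 by 0.42, 0.51 and 0.92, a mean of 0.61 ± 0.27 (SD, n = 3) or 1.53-fold, and replicate 3 was far above the other 2 libraries, whose mean was 0.46. The direction was kept by the longest transcript, at 2.18-fold, while with no length the mean was 0.00 ± 0.27 (SD, n = 3), so that the counts of the 2 effectors did not differ in a set direction. Vdac2 was 3.31-fold below Vdac1 (log2 -1.72 ± 0.06, SD, n = 3), and 1.83-fold below with the longest transcript.

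Vdac2 and Bak1, whose proteins bind each other, had a log2 ratio of -0.08, -0.02 and 0.17 per kilobase, with a mean of 0.02. With the longest transcript Vdac2 was 2.36-fold above Bak1. The ratio of Mcl1 to Pmaip1, the gene of its antagonist NOXA, was -0.16, -0.12 and -0.02, so that Pmaip1 was the higher by 1.07-fold per kilobase in 3 of 3 libraries, while with no length the mean was 0.22. An exact permutation test by sign flips, two-sided over n = 3 libraries, gave p = 0.25 for 8 of the 9 ratios (0.281 after Benjamini-Hochberg adjustment over 9), the smallest p that 3 libraries allow, and p = 1.0 for Vdac2 to Bak1.

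**Figure D2:**
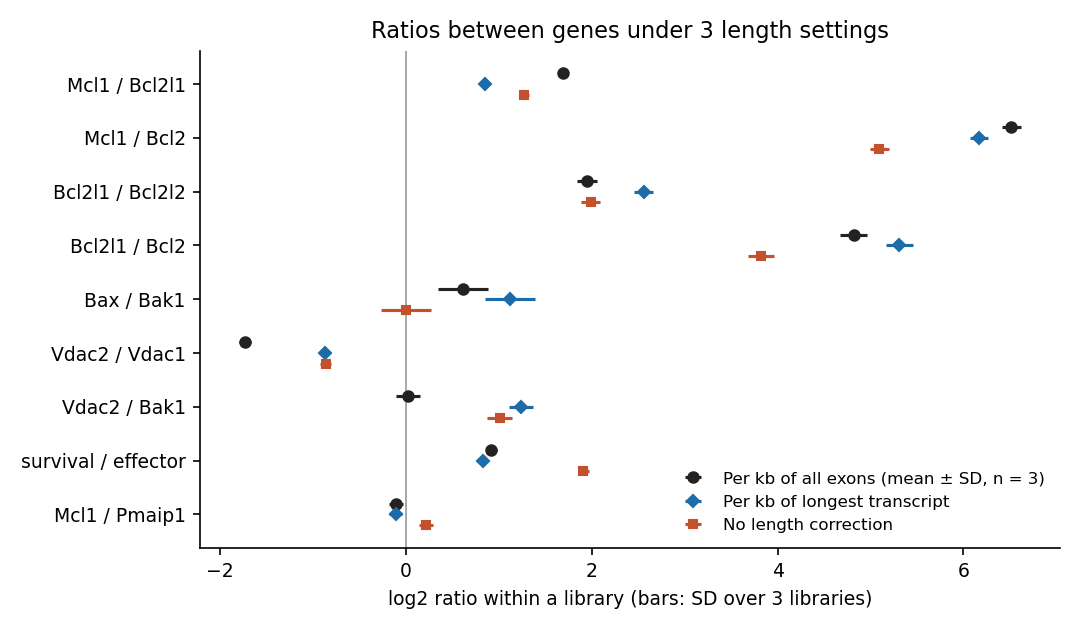
Log2 ratios between genes within a library (x axis), 1 row per ratio, as means with SD over 3 libraries, on 3 length settings. All bars are the SD per kilobase of exon. It differs between settings for survival to effector only, at 0.058 per kilobase of exon, 0.075 with the longest transcript and 0.033 with no length. Mcl1 lies above Bcl2l1 and Bcl2 on every setting, by 0.86 to 6.51, and the ratio of Mcl1 to Pmaip1 lies on either side of 0 depending on the length setting, at -0.10 per kilobase of exon and 0.22 with no length.

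The spread of the genes between libraries was then set against that of all genes. Counts of 5 of the 8 genes kept by the filter on low counts differed between libraries beyond independent counting noise, against 62.2% of all 11308 genes (chi-square test, Benjamini-Hochberg adjusted). The 5 were Mcl1, Bcl2l1, Bax, Bak1 and Vdac2, and the adjusted p of Bcl2, Bcl2l2 and Vdac1 was 0.179, 0.128 and 0.559. Deep counts make small differences visible here: the highest and lowest library of Mcl1 differed by 1.05-fold and those of Bax by 1.27-fold. The biological coefficient of variation (edgeR, intercept-only fit) lay between 6.80% for Vdac1 and 11.1% for Bax. Apart from Bax, each of the 8 genes lay below the median of 9.05% over all genes.

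Each library was also compared with the other 2 by edgeR's quasi-likelihood test over all genes. Such a test compares libraries, not conditions, and has 1 residual degree of freedom. In replicate 1 and in replicate 2 none of the 8 genes passed an adjusted p of 0.05, against 0.0796% and 0.0531% of all genes, none had an unadjusted p under 0.05, and DESeq2 called none. In replicate 3, 3 of the 8 genes were higher, against 24.8% of all genes, and 0 were lower, against 26.8%. The median log2 difference over the 8 genes was 0.06, against 0.01 over all genes tested. With 8 genes, nothing particular to them is read from these counts.

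The error in this test comes from replicates 1 and 2 alone, which lay close together, so its p-values are small for much of the transcriptome and do not show how far a new sample would differ. Bax was higher in replicate 3 by 0.37 on the log2 scale (SE 0.04, edgeR adjusted p = 1.59e-18), or 1.29-fold, and DESeq2 gave an adjusted p of 1.49e-06. In this library the log2 difference of all genes followed exon length, and at the 1576 bases of Bax the trend stood at 0.21. With that trend removed, the difference of Bax was 0.15 (edgeR adjusted p = 0.000755). Bcl2l1 was higher by 0.14 (SE 0.04, edgeR adjusted p = 0.00203) and Vdac2 by 0.13 (SE 0.04, edgeR adjusted p = 0.00264), where the trend at their lengths was -0.03 and -0.04. With the trend removed they were at 0.16 and 0.17, slightly above Bax. With DESeq2 the adjusted p of these 2 genes was 0.0665 and 0.0605, so their calls depend on the tool.

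The other 5 genes did not pass the test in replicate 3. Mcl1 was at 0.09 (edgeR adjusted p = 0.0611), Vdac1 at 0.02 (0.656), Bcl2l2 at -0.04 (0.509) and Bcl2 at -0.07 (0.499). Bak1 was at -0.09 (edgeR adjusted p = 0.0576), while the trend at its length of 2407 bases was 0.14, and it passed as lower with RLE scaling or no scaling. With the trend removed Bak1 was lower by -0.22 (edgeR adjusted p = 6.20e-07), and 3 genes were called higher and 1 lower, against 17.4% and 16.7% of all genes. The part of exon length in these differences was not tested beyond this removal of the trend.

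**Figure D3:**
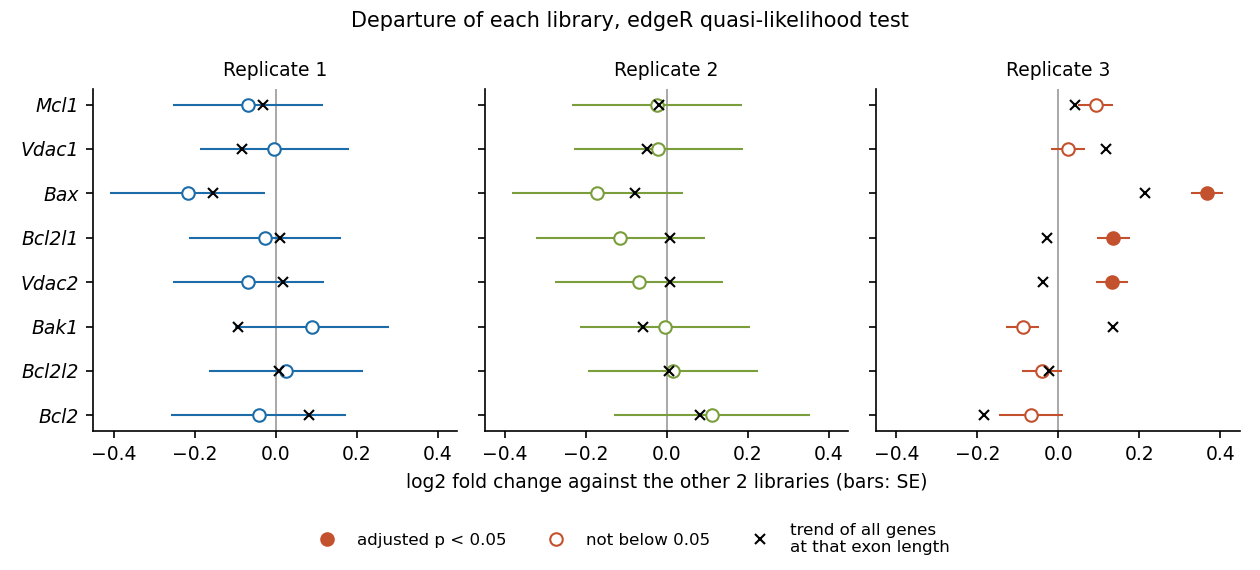
Log2 fold change of each library against the other 2 (x axis) for the 8 genes kept by the filter, with SE bars from edgeR's quasi-likelihood test, filled where the adjusted p is below 0.05. Crosses give the trend of all genes at the exon length of that gene. Bax, Bcl2l1 and Vdac2 are filled in replicate 3, and no gene is filled in replicates 1 and 2, where the SE is wider because it holds the distance of replicate 3 from its partner.

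Genes that act on or after these proteins were taken from 6 lists. The counts below are for replicate 3 against the other 2 libraries, to be read beside 24.8% of all genes higher and 26.8% lower. Counts with the length trend removed are to be read beside 17.4% of all genes higher and 16.7% lower. No gene of any list was called in replicate 1 or 2. Of 8 BH3-only genes, 6 reached 1 CPM in all libraries, with a median of 4.38 CPM per kilobase. Pmaip1 (NOXA) was at 153 ± 3.63 CPM per kilobase, Bid, which links death receptors to mitochondria, at 18.7 ± 0.211 and Bad, which is restrained by phosphorylation, at 10.3 ± 0.887 (SD, n = 3 for each). Pmaip1 was the highest of the 8, and Hrk was at 0 counts in every library, for which up to 0.0179 CPM remains possible. In replicate 3, 1 of 7 tested genes, Bad, was higher (log2 0.24, SE 0.07, edgeR adjusted p = 0.00095) and 0 were lower. With the length trend removed Bad no longer passed, at 0.12 (edgeR adjusted p = 0.163), and 1 gene, Pmaip1, was lower, at -0.13 (edgeR adjusted p = 0.0077).

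Of 8 other BCL2 relatives, 3 reached 1 CPM and 4 had 0 counts: Bcl2a1a, Bcl2a1b, Bcl2a1c and Bcl2a1d, which encode the survival protein A1 or are copies of its gene. The Bcl2a1 genes are near-identical, so reads could be split or dropped in counting. The highest were Bcl2l13, a mitochondrial relative linked to mitophagy, at 8.27 ± 0.819 CPM per kilobase, Bcl2l12 at 4.86 ± 0.423 and Bcl2l15 at 0.773 ± 0.0891 (SD, n = 3 for each). Of 3 tested, 1 was higher and 1 lower in replicate 3, and with the length trend removed 0 were higher and 0 lower.

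Among 7 genes for turnover of the MCL1 protein, 5 reached 1 CPM. Marchf5, a mitochondrial ubiquitin ligase listed under its older symbol March5, was at 108 ± 4.92 CPM per kilobase, Fbxw7, a substrate receptor of a ubiquitin ligase, at 20.9 ± 0.778, and Huwe1, a large ubiquitin ligase also called MULE, at 6.97 ± 1.24 (SD, n = 3 for each). In replicate 3, 1 of 5 tested genes was higher and 3 lower, and with the length trend removed 0 were higher and 2 lower. Usp9x, a deubiquitinase that stabilises MCL1, was chosen here after its values were seen. It had 7906, 5481 and 3422 counts, or 8.43, 7.97 and 3.83 CPM per kilobase. On the log2 scale it was lower in replicate 3 by -1.07 (SE 0.04), or by -0.81 with the length trend removed. Mcl1 itself was at 0.09 in that library, as given above, and a link between these genes was not tested.

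Of 7 partners of the channels, 6 reached 1 CPM. Slc25a5, an adenine nucleotide carrier of the inner membrane, was at 420.4 ± 23.4 CPM per kilobase, above all 10 genes studied, and Tspo, an outer membrane protein, at 53.3 ± 5.47, with Vdac3 the third (SD, n = 3 for each). The other carrier, Slc25a4, had 1, 0 and 2 counts. Hk2, a hexokinase that docks on VDAC, was at 20.8, 21.3 and 18.5 CPM per kilobase in replicates 1, 2 and 3, and its paralog Hk1 at 3.19, 2.92 and 2.46. In replicate 3, 4 of 6 tested genes were higher and 2 lower, and with the length trend removed 2 were higher and 0 lower.

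Downstream, 8 of 9 genes of the apoptosome list reached 1 CPM, with a median of 10.5 CPM per kilobase over the list. The list also holds genes outside the apoptosome itself, among them Aifm1 and Htra2. Cycs, which encodes the cytochrome c that BAX and BAK pores release, was at 66.7 ± 5.42 CPM per kilobase, Aifm1, a flavoprotein of the intermembrane space, at 30.5 ± 1.19, and Htra2, a protease released with it, at 18.4 ± 2.11 (SD, n = 3 for each). The adaptor Apaf1 was at 2.50 ± 0.269 CPM per kilobase (SD, n = 3). In replicate 3, 3 of 8 tested genes were higher and 2 lower, or 3 and 1 with the length trend removed. Of 8 partners of BCL2 at the endoplasmic reticulum and in autophagy, 6 reached 1 CPM. Tmbim6, also called BAX inhibitor 1, was at 81.7 ± 3.90 CPM per kilobase, Fkbp8, an outer membrane protein that anchors BCL2, at 41.1 ± 2.46 and Becn1, the autophagy protein that BCL2 binds, at 18.3 ± 0.429 (SD, n = 3 for each). Of 7 tested, 2 were higher and 1 lower in replicate 3, or 3 and 2 with the length trend removed.

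**Figure D4:**
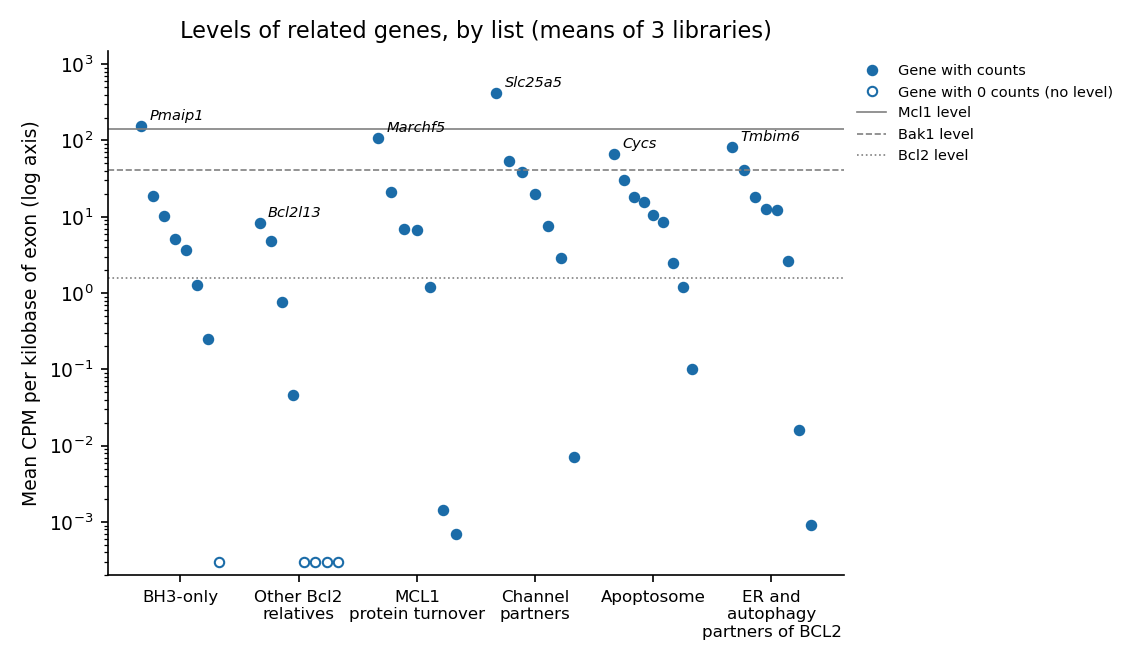
Mean level over 3 libraries of each gene of the 6 lists, as CPM per kilobase of exon on a log axis, sorted within a list, with the highest gene named and lines at the levels of Mcl1, Bak1 and Bcl2. Pmaip1 and Slc25a5 lie above the Mcl1 line, and the 5 open circles at the foot of the axis are genes with 0 counts.

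How far reads of the 10 genes could be shared with other genes was read from the annotated transcripts. No stretch of 50 bases of Mcl1, Bcl2l1, Bcl2l10 or Bok transcripts occurred in a transcript of another gene. Such shared stretches made up 17.1% of Bak1, all with Ggnbp1 on the other strand, 12.1% of Bcl2l2, all with Gm20521, and 8.51% of Bax, all with Gm45808. They made up 5.25% of Bcl2, 4.06% of Vdac2 and 1.41% of Vdac1. Ggnbp1 had 90, 69 and 98 counts, few beside the 6528, 4576 and 5610 of Bak1. Gm20521 and Gm45808 are not among the counted symbols. The sources used here do not give the strand setting or the annotation of the counting step, and the values of Bak1, Bcl2l2 and Bax are uncertain to that extent.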

How the data were processed

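Polyadenylated RNA of 3 samples was sequenced. Each sample has 1 deposited table of raw, unnormalized counts by gene symbol. Per the submitters' processing notes, bcl2fastq, cutadapt 4.2, STAR and the mm10 genome were used, while the sources used here name no counting program or strand setting. Of 24467 symbols, 23688 matched GENCODE M21 (GRCm38, the assembly of mm10) directly and 462 by an older symbol, which gave exon lengths.

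CPM used library totals of 45705994 to 62303493 counts. The limit behind a count of 0 is 3 counts, or 0.0179 CPM over all libraries, for counting error only, as PCR copies are not independent. Tests over all genes used edgeR 4.0.16 (quasi-likelihood, TMM, filterByExpr, Benjamini-Hochberg at 0.05, R 4.3.3). The size of fold changes was checked on simulated counts. Those varied less between libraries than these data and had no length trend, so the rate of false calls here was not tested. Here filterByExpr kept 11308 genes. A SE is the fold change divided by the root of F. The length trend was a loess fit (span 0.3) used as an offset. Alternatives were RLE or no scaling, no filter, DESeq2 1.42.0, other lengths and leaving out a library. Python 3.11.15, pandas 2.3.3 and SciPy 1.17.1 were used for the rest.

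The genes, lists and tests were chosen with earlier results of these data known. The rule names the 10 genes, the 3 highest of each list, genes at 0 counts in all libraries, Pmaip1, and the 3 genes nearest to Mcl1. Other names were added after their values were seen, among them Hk1, Hk2, Apaf1, Slc25a4, Usp9x and Ggnbp1. Protein sequences were not analysed here, and 1 list of markers is not reported here.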

Additional observations from a re-analysis of the deposited data

How the results depend on the processing

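Among the 9 ratios, 2 changed sign under an alternative: Mcl1 to Pmaip1 was 0.22 on the log2 scale with no length correction, against -0.10 per kilobase, and Vdac2 to Bak1 was -0.049 without replicate 3 and 0.075 without replicate 1, the lowest and highest of its values without 1 library, against 0.024, and the cause was not tested. The other 43 of the 45 ratio values kept their sign. A ratio with 1 sign in 3 of 3 libraries cannot change it when a library is left out. That holds for every ratio except Vdac2 to Bak1, so only the length settings could reverse the others. Bax to Bak1 with no length counts as kept at 0.004, although Bax was higher in 1 of 3 libraries. No ratio value could pass a threshold with 3 libraries or fewer. In replicate 3, Bax was higher by 0.37 on the log2 scale with edgeR, 0.36 with DESeq2 and 0.15 with the length trend removed. Bak1 was at -0.09, -0.10 and -0.22 in the same order. Which genes passed moved with the setting, and so did the share of all genes that passed. Bcl2l1 and Vdac2 did not pass with DESeq2. Bak1 passed as lower with RLE scaling, no scaling or the length trend removed. With no filter the same genes passed as in the main setting. No alternative called a gene in replicate 1 or 2. All 50 levels in CPM under TMM or RLE scaling or without 1 replicate moved by less than 1 SD. Leaving out 1 of 3 replicates cannot move a mean by 1 SD. The TMM factors were 0.986 to 1.008, too close to each other to move it far. These levels are therefore no test of robustness. Leaving out a library from the tests between libraries would leave 1 against 1, with no residual degrees of freedom, and was not run. No paired analysis was possible because there is 1 group. Depth limits Bok and Bcl2l10, with 2 and 6 counts in all.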
